A study of Prunus sibirica with 6 samples.

Results

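The CONSTANS-like and double B-box (DBB) transcription factors of Siberian apricot (Prunus sibirica) flower buds were examined in a table of transcription regulators measured by RNA-seq. Members were the transcript clusters whose annotated family was C2C2-CO-like or DBB, each taken once. This gave 8 of the 1508 clusters in the table, 6 of them C2C2-CO-like and 2 DBB. The buds came from a male sterile clone (No. 1, 3 libraries) and a male fertile clone (No. 60, 3 libraries), both labelled as being at the microspore stage and both untreated as far as the labels say. Each group is thus 1 clone, that is 1 genotype, and sterility cannot be told apart from the other genetic differences between these clones. Nothing in the labels says whether the samples of a group came from separate trees, and p-values therefore measure only the spread between these bud samples.

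B-box proteins are plant zinc-finger factors named for a zinc-binding B-box domain near their start. CONSTANS, the founding member in Arabidopsis thaliana, also carries a CCT domain at its end, through which it joins NF-Y subunits on the promoter of the florigen gene FT and promotes flowering under long days. CONSTANS-like (COL) proteins share the CCT domain and are sorted into groups I, II and III by their B-boxes. DBB proteins have B-boxes and no CCT domain, and in Arabidopsis several of them work with the light-signalling factor HY5. Many genes of the family are under the control of the circadian clock and of light.

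The annotation divided the 8 clusters along these lines. The group I members were COL4 (Cluster-6671.11200, 1785 bases) and COL5 (Cluster-6671.7498, 1704 bases). COL6 (Cluster-6671.21263, 1851 bases) stood for group II, and COL9 (Cluster-6671.19251, 2518 bases), COL13 (Cluster-6671.1141, 2160 bases) and COL14 (Cluster-6671.21201, 2233 bases) for group III. The DBB clusters were BBX19 (Cluster-8604.0, 1495 bases) and BBX20 (Cluster-9588.0, 1450 bases). The names come from Swiss-Prot matches, each an Arabidopsis protein, and the groups are those of these Arabidopsis namesakes. The nucleotide hits, all from Prunus mume, gave the same names except that the COL14 cluster matched COL15. Pfam listed a B-box zinc finger in all 8 clusters and a CCT motif in COL4, COL5, COL6, COL9 and COL13. The COL14 cluster and both DBB clusters were listed with a B-box and without CCT. The predicted coding stretch ran from 1134 bases in COL4 to 1533 in COL6, whereas it was 678 bases in BBX20 and 645 in BBX19. In COL6 this stretch began at base 2 of the cluster. The clusters are assembled transcripts without genome coordinates, and no sequences of them were used here.

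The regulator table held between 957196 and 1424835 estimated reads per library, with the 3 sterile libraries below the 3 fertile ones. Counts, lengths and FPKM (fragments scaled to cluster length and library size) implied whole libraries of 16.2 M to 19.0 M fragments for the sterile and 22.1 M to 25.3 M for the fertile buds. Replicates differed by more than sampling noise, with a chi-square per degree of freedom of 51.7 to 65.5 between clones and 1.58 to 1.78 within a clone, except that fertile replicate 1 stood apart from the other fertile libraries, at 12.5 and 11.8. Flower markers were present, with summed FPKM of 403 to 426 in sterile and 365 to 384 in fertile libraries over 10 clusters that included SEPALLATA 1 and an AGAMOUS-type cluster. Of 9 tested, 4 were called higher and 4 lower in sterile buds, against 28.0% and 28.9% of all tested regulators. Outside this list, a cluster named after petunia PMADS2, a PISTILLATA-type gene, averaged 112 FPKM and was lower in sterile buds (log2 fold change -0.545, edgeR adjusted p = 6.43e-06). Tapetum markers (7 clusters) summed to 200 to 208 FPKM in sterile and 80.6 to 84.9 in fertile libraries, and none of the clusters was at 0 in every library. Of 5 tested, 3 were higher and 2 lower, and bHLH10 (135 against 24.9 FPKM) made most of the difference in the sum. MS1 had 39, 79 and 52 reads in the sterile and 2, 0 and 0 in the fertile libraries. Its log2 fold change was 6.44 (edgeR adjusted p = 4.43e-08). Of the 2 AMS clusters, 1 was higher (31.4 against 19.7 FPKM) and 1 lower (29.8 against 32.8 FPKM). The tested MYB35 cluster (3.07 against 4.42 FPKM) was lower. The part of these differences in the results below was not tested. Pollen regulators (5 clusters) summed to 67.4 to 72.5 against 57.1 to 62.5 FPKM, with 2 called higher and 1 lower. The higher ones were a MYB101 cluster (5.26 against 0.413 FPKM, log2 fold change 3.51) and AGL65 (3.52 against 2.05 FPKM). A WRKY2 cluster was lower (4.33 against 5.13 FPKM). The 13 vascular and meristem clusters summed to 110 to 120 against 107 to 109, with 4 higher and 2 lower of 11 tested. The 2 clusters listed for green tissue summed to 39.6 to 41.2 against 30 to 34.4. Most of that sum came from a cluster named LHCB4.3 (27.2 against 20.9 FPKM). Its annotated family and its Prunus mume hit were of the high mobility group type, so the sum may not reflect green tissue. The other cluster, GLK2, was not called (13 against 10.9 FPKM). In whole buds, fewer cells of a type and less RNA per cell cannot be told apart.

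All 8 CONSTANS-like and DBB clusters had more RNA in the sterile buds by FPKM, where 64.3% of tested regulators had the higher mean FPKM in sterile buds. The FPKM ratio was 2.20 for COL6 and 1.87 for COL13, and between 1.19 and 1.57 for the other 6. In each of the 8 clusters every sterile library lay above every fertile one, which was true of 46.2% of the 1380 regulators that passed the low-count filter and of 35.8% of the 21730 clusters tested on FPKM. The edgeR quasi-likelihood test, which scales the libraries within the regulator table by TMM (trimmed mean of M-values), called 5 of the 8 higher in sterile buds at an adjusted p of 0.05 and none lower. The 5 were COL5, COL6, COL9, COL13 and BBX19, and the background was 28.0% of regulators called higher and 28.9% called lower (57.0% in either direction). No member had a negative fold change, where 51.8% of tested regulators had a positive one. Above a minimum fold of 1.2, 3 members were called (COL6, COL9 and COL13), against 16.7% of regulators. COL4, COL14 and BBX20 were not called. Without fertile replicate 1, which stands apart, all 8 members were called higher, against 32.8% of regulators. All 8 passed the low-count filter, with 65 to 4964 reads per library.

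How many members were called depended on the library scale. The median log2 fold change, sterile over fertile, was 0.37 for the 8 members and 0.01 for all tested regulators under TMM. With the implied whole-library totals in its place, the medians were 0.51 and 0.15, and all 8 members were called higher, against 41.1% of regulators. On the FPKM of the whole transcriptome, limma called all 8 members higher, against 29.1% of clusters (49.8% called in either direction), with a median difference of 0.45 on the log2(FPKM + 1) scale for the members and 0.08 for all clusters. The fold changes that follow use TMM and so are relative to the other regulators. By the authors' deposited table, a total of 5 of the 8 members had a q-value under 0.05 (COL4, COL5, COL6, COL9 and COL13), and 1 of them, COL6, was marked as up-regulated. Of the 1508 regulators listed, 90 were marked as up-regulated and 97 as down-regulated. The share of all regulators with a q-value under 0.05 was not counted.

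**Figure D1:**
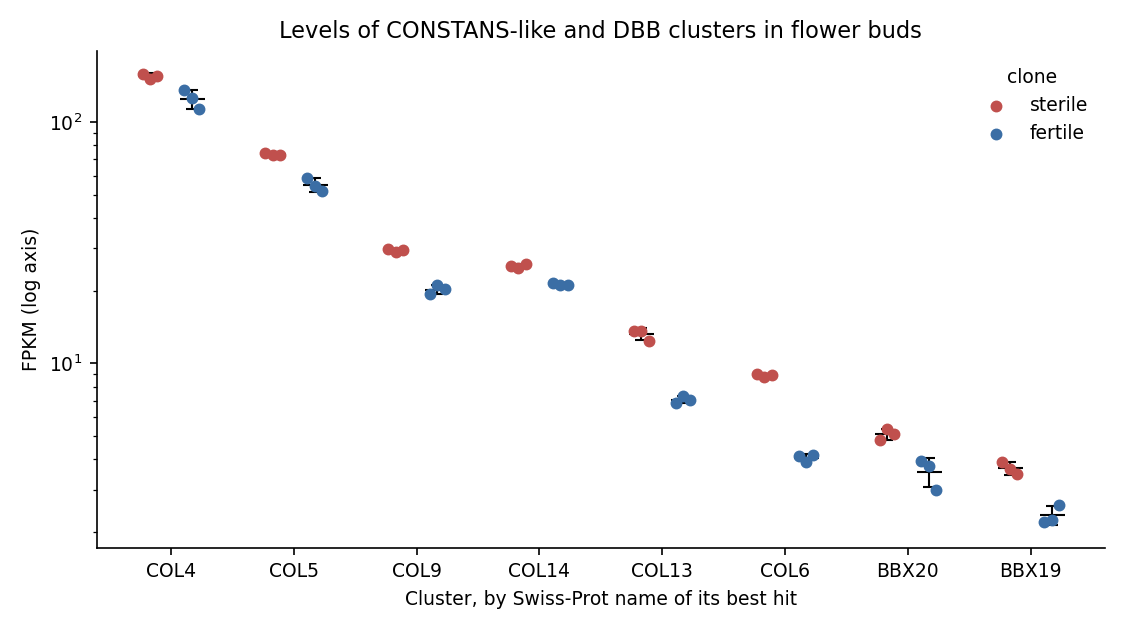
FPKM (log axis) of each CONSTANS-like and DBB cluster in the 3 sterile and 3 fertile libraries, with the group mean and SD as a bar. The points of the sterile clone lie above those of the fertile clone in all 8 clusters, and COL4 is the most abundant in both.

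COL4 and COL5, of group I, were the most abundant members. COL4 has been described in Arabidopsis as a repressor of flowering that also acts in stress responses, and COL5 promotes flowering there when overexpressed in short days. COL4 had 158.68, 150.51 and 155.66 FPKM in the sterile libraries and 136.10, 125.14 and 113.53 FPKM in the fertile libraries. The groups did not overlap, but the fertile libraries were spread over a wider range, with a coefficient of variation of 9.03% against 2.67% in sterile buds, where counting alone would give 1.49% and 1.56%. The mean level, 155 ± 4.13 FPKM in sterile and 125 ± 11.3 FPKM in fertile buds (SD, n = 3 each), ranked 10th of all 1508 regulators over the 6 libraries. By edgeR the log2 fold change was 0.16 ± 0.07 (SE), a fold of 1.12 with a 95% interval of 1.00 to 1.24, and the adjusted p of 0.0774 missed the threshold. COL4 was called with the implied whole-library totals (log2 fold change 0.30, edgeR adjusted p = 0.00223) and without fertile replicate 1, its highest fertile library (0.24). Its value fell to 0.08 (edgeR adjusted p = 0.369) when fertile replicate 3, its lowest library, was left out.

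COL5 had 74.73, 73.10 and 72.78 FPKM in the sterile libraries and 58.72, 54.31 and 51.78 FPKM in the fertile libraries. The groups again did not overlap, and the sterile libraries lay within 2 FPKM of each other. The mean was 73.5 ± 1.05 against 54.9 ± 3.51 FPKM (SD, n = 3 each). The log2 fold change was 0.27 ± 0.07 (edgeR adjusted p = 0.00342), and the call remained with each library left out in turn, at 0.22 to 0.34. As with COL4, fertile replicate 3 was the lowest library and fertile replicate 1 the highest of the fertile ones.

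COL6, the group II member, showed the largest difference of the 8. It had 9.03, 8.82 and 8.94 FPKM in the sterile libraries and 4.13, 3.90 and 4.16 FPKM in the fertile libraries. Each clone held a narrow band, far from that of the other clone. The means were 8.93 ± 0.105 and 4.06 ± 0.142 FPKM (SD, n = 3 each). The log2 fold change was 0.99 ± 0.10, a 1.98-fold difference with a 95% interval of 1.70 to 2.31 (edgeR adjusted p = 3.7e-07). In the authors' deposited table it was 1.06 with a q-value of 1.69e-10. The library counts were 145 to 267 reads, for which counting error alone is 6.37% in sterile and 8.09% in fertile buds, above the observed coefficients of variation of 1.18% and 3.50%.

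The group III clusters differed among themselves. COL13, which in Arabidopsis acts downstream of HY5 in the growth of the seedling stem, had 13.65, 13.66 and 12.34 FPKM in the sterile libraries and 6.84, 7.29 and 7.08 FPKM in the fertile libraries. The means of 13.2 ± 0.759 and 7.07 ± 0.225 FPKM (SD, n = 3 each) were 1.87-fold apart. Its log2 fold change of 0.75 ± 0.08 was called (edgeR adjusted p = 6.72e-07). The 95% intervals of 0.58 to 0.93 for COL13 and 0.77 to 1.21 for COL6 overlapped.

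COL9, which delays flowering in Arabidopsis by lowering the expression of CONSTANS and FT, had 29.77, 28.94 and 29.42 FPKM in the sterile libraries and 19.31, 21.02 and 20.33 FPKM in the fertile libraries. Its log2 fold change was 0.39 ± 0.06 (edgeR adjusted p = 3.01e-05), and the groups lay far apart relative to their spread, at 29.4 ± 0.417 and 20.2 ± 0.86 FPKM (SD, n = 3 each). COL14 had 25.39, 24.87 and 25.76 FPKM in the sterile libraries and 21.54, 21.03 and 21.09 FPKM in the fertile libraries. It averaged 25.3 ± 0.447 FPKM in sterile and 21.2 ± 0.279 FPKM in fertile buds. Its groups did not overlap in FPKM, yet the log2 fold change by TMM was 0.11 ± 0.06, with a 95% interval of -0.02 to 0.24 (edgeR adjusted p = 0.152). A change as large as that of COL9, COL13 or COL6 lies outside this interval. COL14 was called with the implied whole-library totals (0.25, edgeR adjusted p = 0.00225) and without fertile replicate 1 (0.14, edgeR adjusted p = 0.02).

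**Figure D2:**
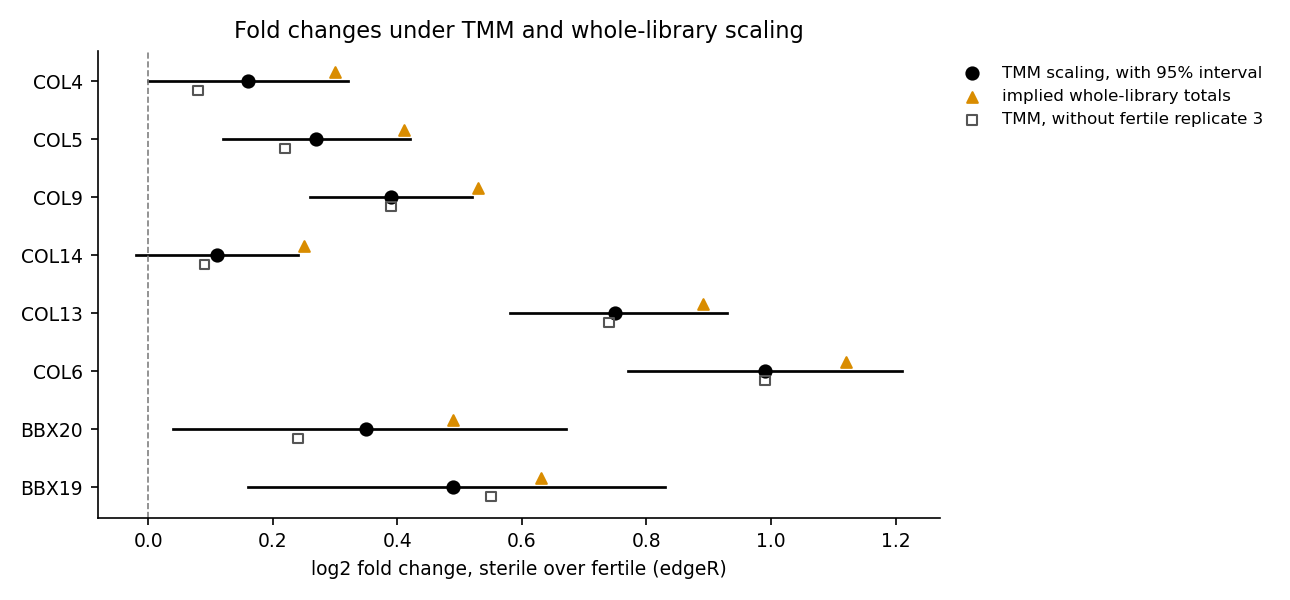
Log2 fold change, sterile over fertile, of each cluster by edgeR. Circles with lines are TMM estimates with 95% intervals, triangles use the implied whole-library totals, and open squares are TMM estimates without fertile replicate 3. All estimates lie above 0, with COL6 and COL13 farthest from it, and the TMM interval of COL14 crosses 0.

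The DBB clusters were the least abundant. BBX19, which in Arabidopsis holds back flowering by binding CONSTANS, had 3.90, 3.66 and 3.47 FPKM in the sterile libraries and 2.20, 2.25 and 2.59 FPKM in the fertile libraries. It averaged 3.68 ± 0.215 FPKM in sterile and 2.35 ± 0.212 FPKM in fertile buds (SD, n = 3 each). Its log2 fold change was 0.49 ± 0.16 (edgeR adjusted p = 0.0138), on 76 to 80 reads per sterile and 65 to 70 per fertile library. The BBX19 call was lost in DESeq2's Wald test (log2 fold change 0.49, adjusted p = 0.0582). BBX20, a promoter of light-dependent seedling development in Arabidopsis, had 4.80, 5.36 and 5.08 FPKM in the sterile libraries and 3.94, 3.75 and 3.0 FPKM in the fertile libraries. It averaged 5.08 ± 0.28 FPKM in sterile and 3.56 ± 0.497 FPKM in fertile buds. Its log2 fold change of 0.35 ± 0.15 was not called (edgeR adjusted p = 0.0532), and it was called without fertile replicate 1 (0.45, edgeR adjusted p = 0.00977). The 95% intervals, 0.16 to 0.83 for BBX19 and 0.04 to 0.67 for BBX20, overlapped, and the difference between the DBB clusters was not tested. Fertile replicate 3 was the lowest library for BBX20 and the highest of the fertile ones for BBX19.

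**Figure D3:**
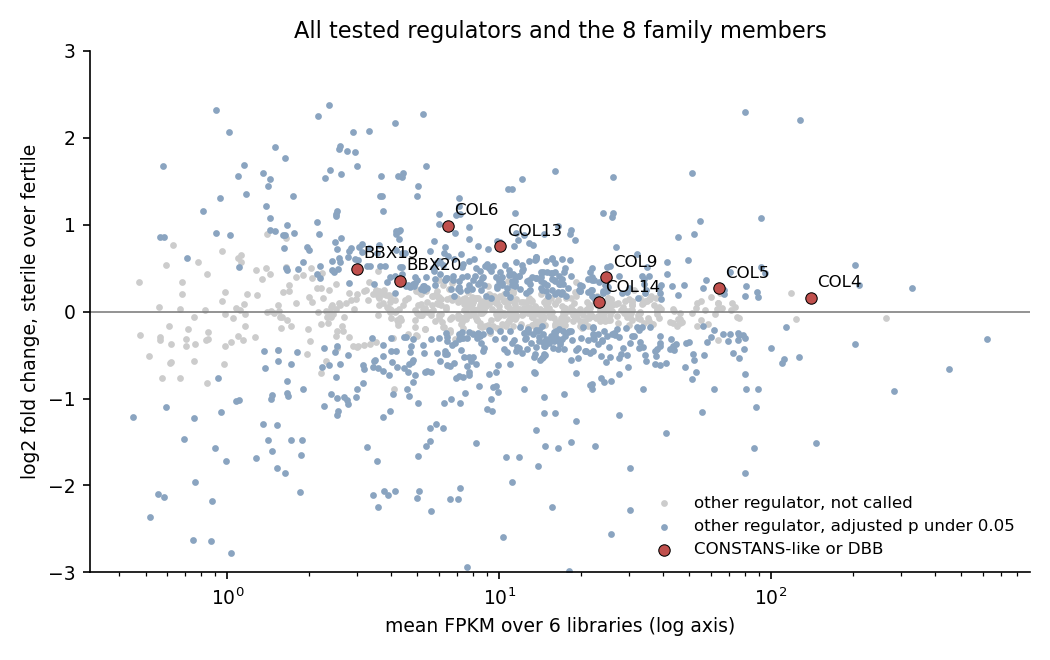
Log2 fold change, sterile over fertile, against mean FPKM (log axis) for the tested regulators, with the 8 CONSTANS-like and DBB clusters marked and named. The vertical axis ends at 3 in both directions, which leaves out 32 regulators. The members lie above 0 over the whole range of levels and well inside the spread of the other regulators.

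Because FPKM is a level per length of transcript, the members can be ranked within a library. In sterile buds the order was COL4, COL5, COL9, COL14, COL13, COL6, BBX20 and BBX19, and no neighbours in it overlapped over the 3 libraries. In fertile buds COL14 stood at 21.03 to 21.54 and COL9 at 19.31 to 21.02 FPKM. The pair was all but level in fertile replicate 2 (21.03 against 21.02 FPKM), so their order there is not firm. COL6 overlapped with BBX20 in fertile buds, at 3.90 to 4.16 against 3.0 to 3.94 FPKM. The 8 clusters summed to 320, 309 and 313 FPKM in the sterile and 253, 239 and 224 FPKM in the fertile libraries. COL4 made up 49.6%, 48.7% and 49.7% of that sum in sterile libraries and 53.8%, 52.4% and 50.8% in fertile libraries.

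Ratios between members within a library do not depend on how libraries are scaled. Per 100 FPKM of COL4, COL6 stood at 5.69 to 5.86 FPKM in sterile and 3.03 to 3.66 in fertile libraries, and COL13 at 7.93 to 9.08 against 5.03 to 6.24. COL5 was at 46.8 to 48.6 against 43.1 to 45.6, COL9 at 18.8 to 19.2 against 14.2 to 17.9 and BBX20 at 3.02 to 3.56 against 2.64 to 3.0. These 5 of 7 ratios to COL4 did not overlap between the clones and were higher in sterile buds, as was true of 17.5% of the other tested regulators set against COL4 in the same way. COL14 (16 to 16.5 against 15.8 to 18.6) and BBX19 (2.23 to 2.46 against 1.62 to 2.28) overlapped. COL9 per 100 FPKM of COL14, which pairs clusters of like abundance, was 114 to 117 in sterile and 89.6 to 100 in fertile libraries. The exact permutation test gave p = 0.1 (two-sided) for each ratio without overlap, the smallest value that 3 libraries against 3 allow, and p = 0.5 for COL14 and 0.2 for BBX19 relative to COL4.

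**Figure D4:**
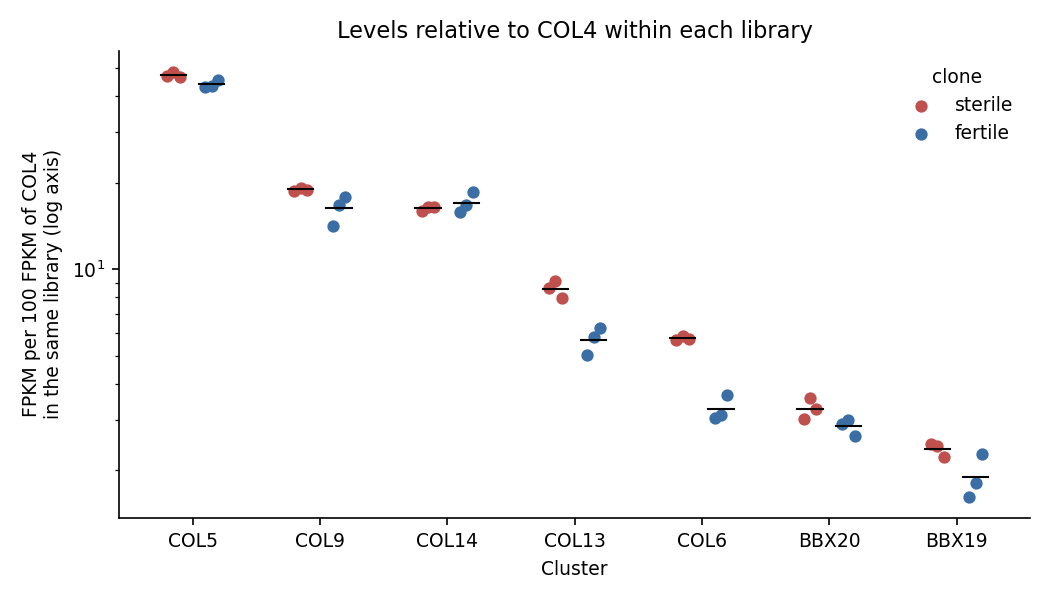
Level of each cluster per 100 FPKM of COL4 in the same library (log axis), by clone, with group means as lines. COL6 and COL13 show the widest gap between the sterile and the fertile libraries, while COL14 and BBX19 overlap.

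The table held 8 further clusters with a CONSTANS-LIKE or B-box Swiss-Prot name that its family column placed elsewhere. They went both ways. Of these 8, edgeR called 2 higher and 4 lower in sterile buds, with a median log2 fold change of -0.16. The background was 28.0% of regulators called higher, 28.9% lower and 57.0% in either direction. The list was put together after the table had been seen.

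The lower ones included both clusters whose Swiss-Prot name is of the CONSTANS-binding microprotein type. Their Prunus mume hits named other proteins instead. These were CONSTANS-LIKE 1-like for Cluster-6671.17684, and CONSTANS-LIKE 2-like and an RNA-binding protein for Cluster-6671.5185. A cluster named B-box domain protein 31 (MIP1B, Cluster-6671.17684), a microprotein type that in Arabidopsis binds CONSTANS and holds back flowering, stood at 10.6 ± 0.131 FPKM in sterile and 21.4 ± 2.09 FPKM in fertile buds (SD, n = 3 each). Its log2 fold change was -1.17 ± 0.10 (edgeR adjusted p = 1.46e-08). BBX32 (Cluster-6671.7192), which in Arabidopsis dampens light signalling by binding BBX21, stood at 6.68 ± 0.295 against 12 ± 1.70 FPKM (log2 fold change -1.0 ± 0.12, edgeR adjusted p = 2.02e-06). In both clusters every sterile library lay below every fertile one, as in 22.5% of tested regulators.

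A second MIP1B cluster (Cluster-6671.5185), whose Pfam hits include a B-box among unrelated domains, stood at 6.03 ± 0.622 against 6.83 ± 0.552 FPKM and was called lower at -0.33 ± 0.13 (edgeR adjusted p = 0.0329). A cluster named COL1 (Cluster-10497.0), for which Pfam listed a CCT motif and no B-box and the Prunus mume hit was COL11, stood at 0.41 ± 0.0819 against 0.783 ± 0.271 FPKM (-1.09 ± 0.38, edgeR adjusted p = 0.0206). Each of these calls was lost in several alternatives. The MIP1B call ended with the implied whole-library totals (-0.20, edgeR adjusted p = 0.173), and in each fit that left out replicate 1 or 2 of either clone, at -0.35 to -0.24 (edgeR adjusted p = 0.0507 to 0.151). The COL1 call ended when fertile replicate 1 or either of sterile replicates 1 and 3 was left out, at -1.10 to -0.78 (edgeR adjusted p = 0.0574 to 0.0948). COL1 rested on 8 to 11 reads per sterile and 16 to 34 per fertile library.

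COL16 (Cluster-6671.3022), of the same group II as COL6, was higher at 20.0 ± 1.10 FPKM in sterile and 12.2 ± 0.728 FPKM in fertile buds (0.56 ± 0.08 on the log2 scale, edgeR adjusted p = 1.22e-05). Its Pfam hits were the same as those of the COL6 cluster and its Prunus mume hit was CONSTANS-LIKE 6-like. The estimated counts of COL6 were whole numbers in every library, and those of COL16 in every library but fertile replicate 3 (434.13). Sharing of reads between the pair was not tested. BBX21 (Cluster-6671.14305), a partner of HY5 in Arabidopsis, was higher at 16.9 ± 1.66 against 12.2 ± 1.22 FPKM (0.32 ± 0.10, edgeR adjusted p = 0.00977). Its Prunus mume hit was named B-box zinc finger protein 20, as was that of the BBX20 member. The BBX21 call was lost without fertile replicate 2 (0.23, edgeR adjusted p = 0.0598) or sterile replicate 3 (0.23, edgeR adjusted p = 0.0991). COL2 (0.12 ± 0.10) and a second BBX19 cluster (0.02 ± 0.13) were not called. With the implied whole-library totals COL2 was called (0.25, edgeR adjusted p = 0.0304), which made 3 of the 8 higher and 3 lower. Of all tested regulators, 41.1% were then called higher and 21.5% lower.

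Genes known to act with B-box proteins were called in either direction about as often as other regulators. By direction, they were called higher more often and lower less often than regulators as a whole. Over 7 lists of partners, regulators and outputs, 50 of 52 matched clusters were tested. Of these, 21 were higher, 10 lower and 19 not called, where the background was 28.0% higher, 28.9% lower and 57.0% in either direction. Their median log2 fold change was 0.19, against 0.01 for all regulators. The implied whole-library totals moved these counts to 32 higher and 7 lower, against 41.1% and 21.5% of regulators.

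Light-signal factors of the bHLH and bZIP families had 5 higher, 1 lower and 3 not called of 9. HY5, the bZIP factor with which several B-box proteins act, stood at 13.4 ± 0.436 FPKM in sterile and 8.94 ± 0.406 FPKM in fertile buds, and its log2 fold change was 0.43 ± 0.08 (edgeR adjusted p = 0.000155). PIF4, a growth factor held in check by phytochrome, rose by 0.55 ± 0.08 on the log2 scale (edgeR adjusted p = 1.1e-05), and BHLH63 (CIB1), which binds a blue-light cryptochrome, by 0.45 ± 0.07 (edgeR adjusted p = 1.47e-05). The lower cluster was 1 of a pair named SPATULA (-0.20 ± 0.07), at 12.6 against 13.0 FPKM.

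Of 5 cyclic Dof factors, which repress CONSTANS transcription in Arabidopsis, 3 were higher, 1 lower and 1 not called. CDF2 (Cluster-6671.7429) stood at 8.50 ± 0.815 FPKM in sterile and 3.54 ± 0.486 FPKM in fertile buds, the largest change of the list (1.12 ± 0.11, edgeR adjusted p = 2.26e-07). Of the clusters named CDF3, Cluster-6671.3723 was higher (0.50 ± 0.09) and Cluster-6671.14765 lower (-0.47 ± 0.14). Other repressors of flowering, TEMPRANILLO and APETALA 2 types, had 1 higher, 1 lower and 3 not called of 5. TEM1 in Arabidopsis competes with CONSTANS on the FT gene. A cluster with that Swiss-Prot name (Cluster-6671.11600), whose Prunus mume hits were RAV1 instead, was lower (-0.78 ± 0.07, edgeR adjusted p = 2.9e-08). It stood at 40.3 ± 2.22 FPKM in sterile and 62.2 ± 2.20 FPKM in fertile buds. A cluster named RAP2-7 (Cluster-6671.15934), after the Arabidopsis repressor TOE1, rose by 0.25 ± 0.07, and its Prunus mume hits were TOE3. RAV2 was not called (0.50 ± 0.26).

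NF-Y subunits B and C, the partners of the CCT domain, had 3 higher, 2 lower and 5 not called of 10 tested. The cluster called with the smallest p, named NFYB10 (Cluster-5639.0), had 152, 207 and 188 reads in the sterile and 2, 0 and 1 in the fertile libraries. NFYC1 was lower (-0.31 ± 0.07), and so was a low-count cluster named after rice HD5 (NF-YB11) at -1.01 ± 0.32. Of 6 clusters of other kinds known for a CCT domain 2 were higher, 1 lower and 3 not called, although Pfam listed no CCT motif for the GATA25 cluster among those not called. The clusters named GATA24 went opposite ways, at 0.40 ± 0.08 for Cluster-6671.5515 and -0.58 ± 0.11 for Cluster-6671.10586, and 1 of the 2 clusters of the chloroplast protein import regulator CIA2 was higher (0.39 ± 0.10). The other CIA2 cluster (Cluster-6671.3526), which its Prunus mume hit names CONSTANS-LIKE 7, was not called (0.24 ± 0.20, edgeR adjusted p = 0.325). Flowering outputs had 2 higher and 1 lower of 3. A cluster with the Swiss-Prot name AGL8 homolog (Cluster-6671.11868), whose Prunus hits were CAULIFLOWER A instead (0.57 ± 0.07), and AGL42 (0.74 ± 0.11) were higher, and the LEAFY-type ALF was lower (-0.60 ± 0.12), at 5.78 ± 0.79 against 7.90 ± 0.312 FPKM.

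Of 12 tested clock clusters 5 were higher, 3 lower and 4 not called, and their median log2 fold change was 0.19. The background of calls in either direction was 57.0% of regulators. APRR5 (Cluster-6671.19223), a CCT-domain repressor of the clock, stood at 24.8 ± 0.633 FPKM in sterile and 11.8 ± 0.712 FPKM in fertile buds (0.93 ± 0.06 on the log2 scale, edgeR adjusted p = 1.13e-09). APRR1, known as TOC1, was lower at 20.8 ± 0.739 against 28.3 ± 2.46 FPKM (-0.58 ± 0.07, edgeR adjusted p = 1.16e-06), and RVE1 (Cluster-6671.38) rose by 0.74 ± 0.09 (edgeR adjusted p = 3.13e-06). The labels give neither the day nor the hour at which the buds of each clone were taken, and the part of sampling time in the differences was not tested.

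**Figure D5:**
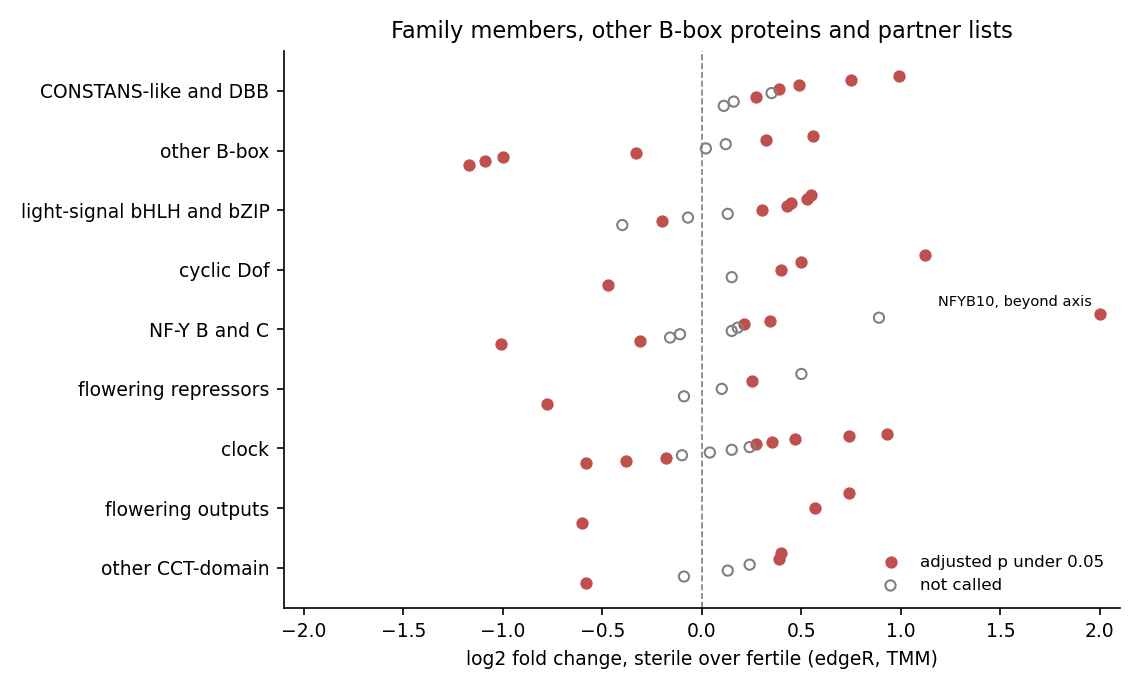
Log2 fold change, sterile over fertile (edgeR, TMM), of every tested cluster of the CONSTANS-like and DBB families, of the other B-box proteins and of the partner lists. Filled points passed an adjusted p of 0.05 and open points did not. The 2 families hold no point below 0, and each other list holds points on both sides. The NFYB10 cluster is drawn at the end of the axis.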

How the data were processed

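Estimated counts per cluster (expected counts), deposited by the authors for 1508 regulator clusters, were rounded and tested with edgeR 4.0.16 (R 4.3.3) over the whole table: filterByExpr (1380 kept), TMM, glmQLFit (robust), glmQLFTest, Benjamini-Hochberg at 0.05. FPKM values were deposited by the authors for the same clusters and for 34377 in all, and were tested with limma 3.58.1 on log2(FPKM + 1), keeping those that reached FPKM 1 in 3 or more libraries. The scale understates changes of low clusters. The log2 fold change and q-value of the authors' deposited table were copied. For the authors' test, assembler and build, names and settings were not given in the sources used here. Among tools, the submitters' processing notes name CASAVA, Bowtie2 and RSEM. RSEM divides reads that match several clusters, and clusters of close paralogs or alleles may share reads. Between 78.2% and 84.7% of estimated counts were whole within 0.005. The table held 114 clusters in more than 1 entry, and each was used once. Whole-library totals were inferred from counts, FPKM and cluster length by a robust regression.

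Members and lists were chosen with earlier results of these data known. Named with each library's value were called members with an absolute log2 fold change of at least 0.5 and the 3 most abundant (the other members were added later), and, with group means, up to 3 clusters per partner list by adjusted p. The lower SPATULA cluster, the second CIA2 cluster and PMADS2 were picked with their values known. The other B-box list and the 1.2-fold minimum were added after the files were seen. Each standard error is the fold change over the root of its F statistic. Alternatives were other library scales, DESeq2 1.42.0, no low-count filter, pseudocounts of 0.1 and 5, rescaled FPKM, a replicate block, and each library left out. No sequences were used here.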

Additional observations from a re-analysis of the deposited data

How the results depend on the processing

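All 8 members kept a positive log2 fold change in the 14 edgeR and DESeq2 alternatives. COL6, COL9 and COL13 were called in all 14, COL5 in 13 and BBX19 in 12, and COL14, COL4 and BBX20 in 3, 4 and 4. The number of members called higher was 8 with the implied whole-library totals, with or without median ratios (33.7% and 41.1% of regulators higher). It was 3 with the 1.2-fold minimum (16.7% of regulators), chosen after seeing the data. With each library left out in turn it was 5 to 8 (22.8% to 32.8% of regulators), and 8 only without fertile replicate 1 (32.8% of regulators higher). There edgeR's prior degrees of freedom were infinite, against a median of 13.1 with all libraries, and COL4, COL14 and BBX20 had larger fold changes. The parts of each were not separated. DESeq2 called 4, against 22.6% of regulators called higher. By limma 7 or 8 members were called higher in every alternative. Clusters called in either direction numbered 8092 to 11420. In the main limma fit 29.1% of 21730 clusters were called higher, and this share was not counted for the alternatives.

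Partner clusters called higher numbered 32 with the implied whole-library totals. The 1.2-fold minimum gave 12 higher and 5 lower partners, 1 higher B-box cluster outside the families, and 231 higher and 259 lower (490 in all) of the regulators. Of the B-box clusters outside the families, DESeq2 called 2 lower, and leaving out libraries gave 1 to 2 higher and 2 to 4 lower. The second BBX19 cluster turned to -0.01 without the low-count filter and ranged from -0.10 to 0.19 with each library left out, negative without fertile replicate 2, fertile replicate 3 or sterile replicate 2. COL2 ranged from 0.00 (without sterile replicate 3) to 0.16, and neither was called in these. The cause was not tested.

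Same-numbered libraries did not deviate together (correlations of 0.016, 0.027 and 0.009). Such values cannot tell whether the samples were paired when taken or prepared, which the labels do not say. With the replicate block the same number of members, 5, was called higher, 0 lower, and the regulators called higher numbered 389.

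The DBB clusters, with 65 to 113 reads per library, are the least precise members.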
